A study of Mus musculus with 6 samples.

Results

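The 10 genes described here, Id1, Id2, Id3, Id4, Bmpr1a, Tgfbr1, Tgfbr2, Smad3, Smad6 and Smad7, belong to BMP and TGF-beta signalling or are its direct Id targets. Their chromatin accessibility was measured by ATAC-seq, in which the Tn5 transposase cuts and tags open DNA, in freshly isolated mouse muscle stem cells (MuSCs). A peak was taken as a member if the deposited peak table gave it one of these gene symbols, or if it carried no gene and lay between the start and the stop of the gene. This rule found 84 of the 75412 peaks, of which 31 carried the symbol of the gene and 53 lay inside the gene without a symbol.

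All mice were of the C57BL/6 strain. MuSCs of 2 genotypes were compared, with 3 libraries each. Taf4a sKO mice carried 2 Taf4a flox alleles, with exons 11 and 12 between loxP sites, and a tamoxifen-inducible Cre expressed from Pax7, so that tamoxifen removed these exons in Pax7-expressing cells. Controls were littermates with the same flox alleles, with or without the Cre allele according to the study's methods, and are called WT in the sample names. The study's list of mouse strains names tamoxifen treatment for Taf4a sKO mice and not for controls. Adult males and females were used, and MuSCs were sorted as cells negative for SCA1, CD45 and CD31 and positive for Integrin-a7 or for a Pax7 reporter. The sources used here do not state whether a library pooled several mice or how long after tamoxifen the cells were taken. The 3 libraries of a genotype carry separate names but no animal, so p-values measure the spread between these libraries.

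Values are called normalised counts here: reads per peak, which the authors scaled to a common depth and then rounded. Summed over all peaks they came to 37722015, 35226223 and 42803315 in the control libraries and to 44311913, 41661725 and 41948821 in the Taf4a sKO libraries. Changes are log2 differences between Taf4a sKO and control on log2(value + 1), with the standard error (SE) and the adjusted p of limma over all 75384 peaks with a mean above 10. A peak was called higher or lower in Taf4a sKO when its adjusted p was under 0.05.

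BMP and TGF-beta ligands bring together type I and type II receptor kinases at the cell surface. Bmpr1a is a type I receptor for BMPs, and Tgfbr1 and Tgfbr2 are the type I and type II receptors for TGF-beta. The receptors phosphorylate Smads that carry the signal to the nucleus, Smad1, Smad5 and Smad9 for BMPs and Smad2 and Smad3 for TGF-beta, each with Smad4. Smad6 and Smad7 are inhibitory Smads that the pathway itself induces. Id proteins lack a DNA-binding region and hold E proteins away from myogenic factors such as MyoD, and their genes are classical BMP targets. In skeletal muscle, BMP signalling is known to favour expansion of myogenic progenitors, and TGF-beta signalling to restrain myogenic differentiation.

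The labels were first compared with the floxed gene, named Taf4 in the peak table. A peak over exon 12 (chr2:179922849-179923263) had normalised counts of 65, 78 and 137 in the control libraries and 44, 22 and 25 in the Taf4a sKO libraries (log2 change -1.58 ± 0.30 SE, adjusted p = 0.00034). Every Taf4a sKO library was thus below every control library at the deleted exons. The fall was not confined to these exons. A peak over exon 7, outside the deletion, fell from 253, 249 and 302 to 140, 145 and 165 (-0.83 ± 0.15, adjusted p = 0.00014). Another at chr2:179916955-179917641 fell by 0.49 on the log2 scale (adjusted p = 0.027), and one at chr2:179979788-179980166 rose by 0.55 (adjusted p = 0.003). At the promoter peak of Taf4, control had 2305, 1998 and 2375 and Taf4a sKO had 2095, 2124 and 2104 (-0.07 ± 0.10, adjusted p = 0.59).

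All 10 MuSC markers examined had a promoter peak. The highest of them by normalised count was Pax7, the factor that defines the lineage. It had 4533, 3128 and 3729 in control and 3084, 2923 and 3026 in Taf4a sKO (adjusted p = 0.030 for a lower value). Per kb of peak in control, Heyl (2149) and Cdh15 (2132) were above Pax7 (1963). Vcam1 was called higher and the other 8 were not called, and the 10 summed to 16729, 14105 and 17296 in control and 15989, 15054 and 15215 in Taf4a sKO. None of 6 haematopoietic markers had a promoter peak, Ptprc and Spi1 among them. Of 7 endothelial markers, 3 had one, with Tek the highest and called higher, and Pecam1, Cdh5, Emcn and Egfl7 had none. The endothelial sums were 1603, 1428 and 1945 in control and 2053, 2109 and 2012 in Taf4a sKO. Of 6 markers of mesenchymal cells, 4 had a promoter peak, while Pdgfra and Ly6a had none. Col1a1 was the highest by count and Dpt per kb of peak (1171 against 729 in control). The summed promoter counts of the mesenchymal markers were 1873, 1624 and 2049 in control and 2648, 2467 and 2446 in Taf4a sKO, with Dcn, Col1a1 and Lum called higher and Dpt called lower. For mural markers, 3 of 4 had a promoter peak, and Rgs5 had none. The mural sums were 2804, 2756 and 2985 in control and 3600, 3227 and 3386 in Taf4a sKO, with Acta2 and Myh11 called higher. Acta2 was the highest by count and Kcnj8, which was not called, per kb of peak (1180 against 890 in control). Of 6 myofibre markers 3 had a promoter peak, with Myh1 the highest and none called. The endothelial, mesenchymal and mural sums were higher in each Taf4a sKO library than in each control library. Their part in the results that follow was not tested. The study reanalysed its sorted cells and gives a purity well short of complete, without a value for each library. In bulk libraries, a site open in fewer cells and a site less open in each cell cannot be told apart.

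Among the 84 member peaks, 36 were higher in Taf4a sKO, 8 were lower and 40 were not called. All 84 passed the filter on low values. Of all peaks tested, 28% were higher and 13.9% lower, so the share of lower members (9.52%) was near the background and the share of higher members (42.9%) was above it. The median log2 change of the members was 0.30, against 0.11 for all peaks. This excess rested on Smad3: without it, 17 of 58 peaks were higher (29.3%) and 8 lower (13.8%), close to the shares of all peaks. The groups did not overlap at 48 member peaks, with each Taf4a sKO library above each control library at 38 and below at 10, while 32.3% and 18% of all peaks were so. Past 2-fold, the ratio of the genotype means was above at 8 member peaks, 6 of them in Smad3, and below at 1, beside 7.02% and 5.36% of all peaks.

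On average the summed signal in peaks was higher in Taf4a sKO, although control replicate 3 was above Taf4a sKO replicates 2 and 3. How libraries are scaled to each other moved the balance of calls. With libraries set to equal total signal, 29 member peaks were higher and 18 lower, so that higher peaks made up 61.7% of the called members instead of 81.8%. Over all peaks the same scaling moved that share from 66.8% to 47.6% and the median log2 change from 0.11 to -0.04. Of the 84 member peaks, 13 changed sign under at least 1 of 4 other scalings, and none of these 13 was a called peak. Apart from quantile normalization, these scalings use a factor per library, which shifts all its peaks together. Under such a factor only small changes could change sign. This count therefore does not measure how stable the calls are.

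**Figure D1:**
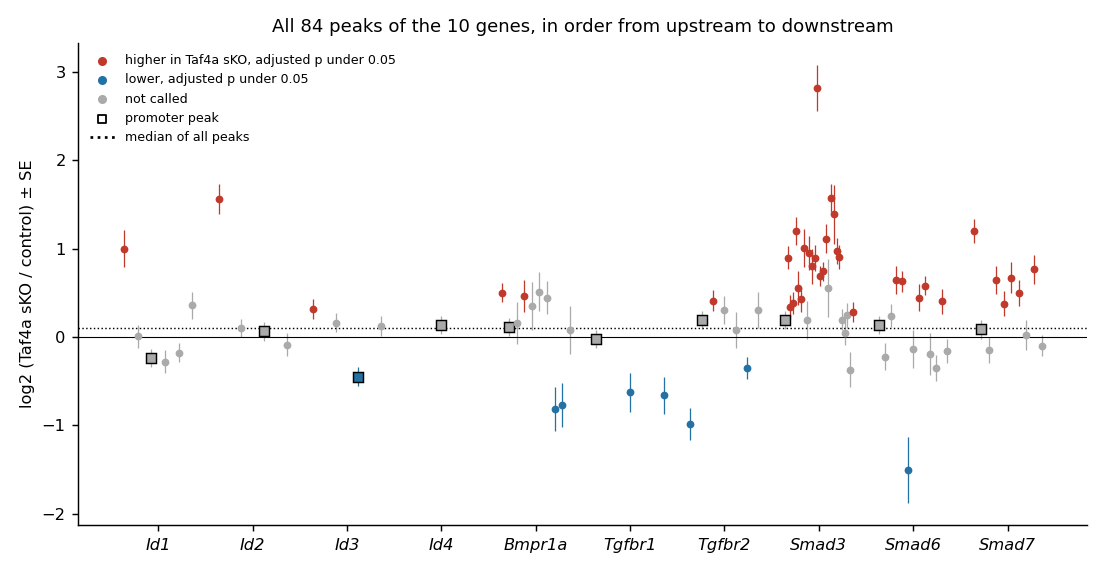
Log2 change between Taf4a sKO and control (y axis, with SE) for each of the 84 peaks of the 10 genes (x axis, within a gene in order from upstream to downstream; squares are promoter peaks; the dotted line is the median of all peaks). Smad3 holds 19 of the 36 peaks called higher, and the only promoter peak called is that of Id3, which is lower.

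The promoter peaks of the 10 genes, each the annotated peak centred within 1000 bp of the transcription start site (TSS), were open in both genotypes. Per kb of peak, control levels ran from 2662 ± 309 (SD, n = 3) normalised counts for Id2 through Smad7, Id3, Smad6, Id1, Tgfbr1, Id4, Bmpr1a and Tgfbr2 to 1432 ± 140 for Smad3. The control libraries of neighbours in this order overlapped in each case, and even Smad3 stood at the 69.6th percentile of all promoter peaks. In Taf4a sKO none of the 10 was called higher and 1, Id3, was called lower, whereas 12.8% of all promoter peaks were higher and 6.35% lower. With TMM factors, median-of-ratios factors, equal totals or quantile normalization, 3 of the 10 were lower: Id3, Id1 and Tgfbr1. Of all promoter peaks, 22% to 33.4% were lower under these scalings. Without control replicate 3, in contrast, 5 were called higher: Bmpr1a, Id4, Tgfbr2, Smad3 and Smad6, with adjusted p of 0.0083 to 0.034, and so were 29.5% of all promoter peaks.

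**Figure D2:**
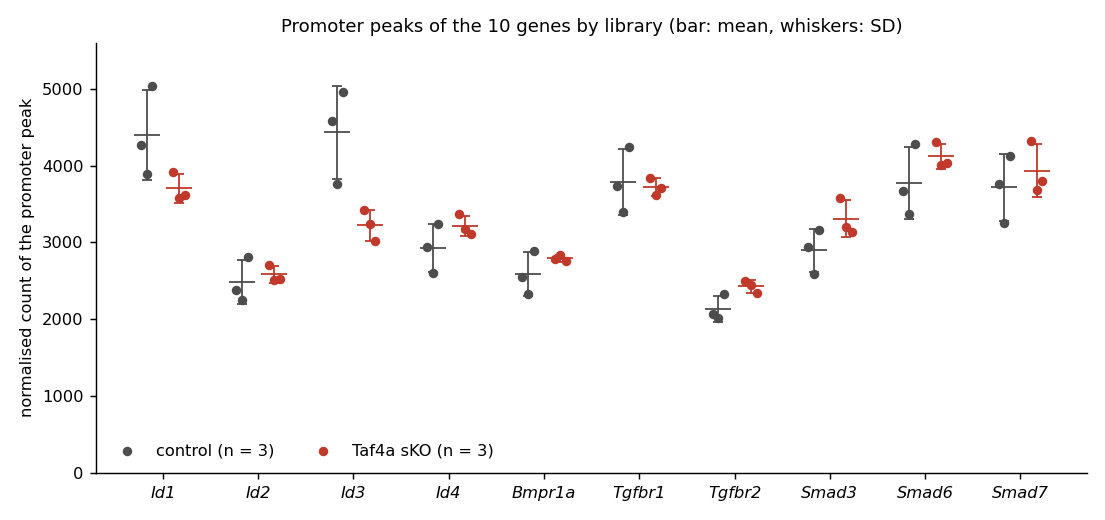
Normalised counts (y axis) of the promoter peak of each gene (x axis) in the 3 control and 3 Taf4a sKO libraries, with mean and SD. The Id3 libraries of Taf4a sKO lie at 3017 to 3417, below the control libraries at 3761 to 4953, while the groups overlap or nearly touch at the other genes.

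Id3 (chr4:136143497-136145755, plus strand) encodes an inhibitor of E proteins that BMPs induce. Its promoter peak (chr4:136143216-136145042) had normalised counts of 4583, 3761 and 4953 in control and 3417, 3235 and 3017 in Taf4a sKO. The groups did not overlap, and the log2 change was -0.45 ± 0.11 SE (adjusted p = 0.0016). This call held in all 16 alternatives fitted (scaling, pseudocount, filter, block and each library left out), with adjusted p of 0.015 at most. The peak 8470 bp upstream (chr4:136134440-136135615) had 715, 687 and 695 in control and 858, 885 and 871 in Taf4a sKO (0.32 ± 0.11, adjusted p = 0.022), a call that was lost in 8 of 16 alternatives. The other 2 peaks, 3094 bp upstream and 4507 bp downstream of the TSS, were not called, with log2 changes of 0.16 and 0.13. At Id3 the promoter thus changed in the direction opposite to the most upstream peak.

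The 200 bases before the Id3 TSS in the peak table lie inside the promoter peak and are shown as the start region of the called promoter (chr4:136143297-136143496, mm10, plus strand, from the GRCm38.p6 genome; capitals mark GTCTG or its complement CAGAC, the core of the Smad-binding element, and CCAAT or ATTGG, the box bound by NF-Y):
Id3 start: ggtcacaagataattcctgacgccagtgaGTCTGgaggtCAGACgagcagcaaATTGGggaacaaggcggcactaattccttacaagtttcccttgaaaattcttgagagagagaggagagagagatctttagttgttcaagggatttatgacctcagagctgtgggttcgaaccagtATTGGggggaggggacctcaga
Each of these motifs occurs 2 times here. Over the last 200 bases before RefSeq starts, 35.5% of 32851 promoters hold GTCTG and 29.3% hold CCAAT, on either strand. The RefSeq start of Id3 lies 325 bp downstream of the TSS in the peak table, so these shares are for a differently placed window. The RefSeq promoter window of Id3, which is longer, holds 2 GTCTG matches and 0 CCAAT matches. A match is a description of the letters only.

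Id1 (chr2:152736251-152737410, plus strand), the Id gene most used as a readout of BMP signalling, carried 6 peaks. Its promoter peak (chr2:152734785-152736690) had 4272, 3886 and 5033 in control and 3920, 3575 and 3622 in Taf4a sKO. The highest Taf4a sKO library was just above the lowest control library, and the log2 change was -0.24 ± 0.10 SE (adjusted p = 0.070). With the 4 other scalings this promoter was called lower, at -0.34 to -0.39, as were the peaks 1710 and 3207 bp downstream. The peak 9222 bp upstream (chr2:152726831-152727227) was higher, with 44, 59 and 76 in control and 110, 115 and 128 in Taf4a sKO (1.00 ± 0.21, adjusted p = 0.00054). It is a small peak beside the promoter, and its groups were well apart. The remaining 4 Id1 peaks were not called and ranged from -0.28 to 0.36.

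Id2 (chr12:25093799-25097140, minus strand) is expressed in many progenitor cells and likewise binds E proteins. Its promoter peak (chr12:25095722-25096653) had 2384, 2255 and 2805 in control and 2712, 2509 and 2528 in Taf4a sKO (0.06 ± 0.10 SE, adjusted p = 0.66), and the groups overlapped. The peak 4478 bp upstream (chr12:25101532-25101705) had 76, 89 and 117 in control and 289, 259 and 277 in Taf4a sKO. This was a 2.95-fold difference (log2 1.56 ± 0.17, adjusted p = 2.5e-07), the largest of the 15 peaks of the Id genes. The other 2 Id2 peaks were not called, with 0.10 at 2012 bp upstream and -0.09 at 4557 bp downstream.

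Id4 (chr13:48261228-48266026, plus strand) had 1 peak, at its promoter (chr13:48260569-48262180). It held 2943, 2604 and 3238 in control and 3364, 3178 and 3106 in Taf4a sKO (0.14 ± 0.10 SE, adjusted p = 0.29). The groups overlapped. In all, 3 of 15 Id peaks were higher (20%) and 1 was lower (6.67%), beside 28% and 13.9% of all peaks. With TMM or median-of-ratios factors 4 of the 15 were lower, and with equal totals or quantile normalization 5 were, while 22.3% to 25.8% of all peaks were lower under these scalings.

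The central 200 bases of the Id2 peak that was higher are shown beside stretches before the RefSeq starts of Id2 and Id4, whose promoters were not called. In mm10 the peak window lies at chr12:25101518-25101717 on the plus strand, the Id2 stretch at chr12:25096254-25096342 on the minus strand and the Id4 window at chr13:48260866-48261115 on the plus strand. The last 2 come from RefSeq promoters on GRCm38, that of Id2 without its exon. The RefSeq start of Id2 lies 1048 bp downstream of the TSS in the peak table, so the stretch is inside the gene as the table gives it. Despite its label, the Id2 stretch is the part of the window farthest from the RefSeq start and does not reach it. Capitals mark GTCTG or its complement, the NF-Y box CCAAT or its complement, the E-box of MyoD type with the letters CAGCTG, and a GC-rich element bound by BMP Smads, GGCGCC:
Id2 upstream peak: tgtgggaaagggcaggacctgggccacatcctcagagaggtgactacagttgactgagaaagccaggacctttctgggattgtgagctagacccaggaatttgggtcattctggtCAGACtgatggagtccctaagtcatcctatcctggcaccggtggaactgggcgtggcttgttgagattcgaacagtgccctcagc
Id2 start: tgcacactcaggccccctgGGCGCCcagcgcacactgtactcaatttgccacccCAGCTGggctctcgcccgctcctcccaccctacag
Id4 start: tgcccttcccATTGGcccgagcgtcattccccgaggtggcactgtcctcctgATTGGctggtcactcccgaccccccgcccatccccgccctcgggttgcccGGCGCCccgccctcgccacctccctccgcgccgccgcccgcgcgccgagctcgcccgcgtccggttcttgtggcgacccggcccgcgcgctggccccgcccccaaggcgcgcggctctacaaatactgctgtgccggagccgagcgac
The upstream peak holds 1 GTCTG match, which 41.5% of all peaks hold in their central 200 bases. GGCGCC occurs 1 time in the Id4 window, and 9.59% of 250-base RefSeq promoters hold it. The Id2 stretch of 89 bases also holds 1, with no share given for this length.

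The BMP receptor gene Bmpr1a (chr14:34410734-34503341, minus strand) had 10 peaks, 2 higher and 2 lower. Its promoter peak (chr14:34501878-34503432) had 2548, 2323 and 2886 in control and 2787, 2841 and 2753 in Taf4a sKO (0.12 ± 0.10 SE, adjusted p = 0.38). The groups overlapped there. The peak 5367 bp upstream (chr14:34508159-34509257) was higher, with 868, 833 and 921 in control and 1335, 1181 and 1192 in Taf4a sKO (0.50 ± 0.11, adjusted p = 0.00065). An intronic peak 44159 bp into the gene (chr14:34459027-34459338) was lower, with 60, 67 and 89 in control and 36, 52 and 34 in Taf4a sKO (-0.81 ± 0.24, adjusted p = 0.0096). Groups did not overlap at either peak. Another intronic peak, 60598 bp from the TSS (chr14:34442605-34442882), had 104, 85 and 57 in control and 56, 37 and 48 in Taf4a sKO (-0.77 ± 0.25, adjusted p = 0.014), with the lowest control library just above the highest Taf4a sKO library. That call was lost in 3 of 16 alternatives. A further intronic peak, 19609 bp from the TSS, was also higher (0.46 ± 0.18), a call lost with each of the 4 other scalings, and the other 5 were not called, at 0.08 to 0.51.

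Tgfbr1 (chr4:47353222-47414931, plus strand), the type I receptor for TGF-beta, had 3 peaks, none with a positive log2 change. The promoter peak (chr4:47352162-47353907) had 3739, 3390 and 4242 in control and 3841, 3616 and 3709 in Taf4a sKO (-0.02 ± 0.10 SE, adjusted p = 0.89). The groups overlapped, but with the 4 other scalings this promoter was called lower, at -0.12 to -0.17. The intronic peak 46745 bp from the TSS (chr4:47399827-47400107) had 85, 81 and 112 in control and 46, 71 and 63 in Taf4a sKO (-0.63 ± 0.22, adjusted p = 0.024). The one 54158 bp from the TSS (chr4:47407185-47407576) had 135, 126 and 191 in control and 126, 86 and 75 in Taf4a sKO (-0.66 ± 0.21, adjusted p = 0.014). At the latter the groups met at 126, and each of both calls was lost in 2 of 16 alternatives.

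Tgfbr2 (chr9:116084293-116175360, minus strand), the type II receptor that binds TGF-beta, had 7 peaks. Its promoter peak (chr9:116174410-116175787) had 2062, 2013 and 2328 in control and 2498, 2451 and 2339 in Taf4a sKO. The groups did not overlap, but the change of 0.19 ± 0.10 SE was not called (adjusted p = 0.14) unless control replicate 3 was left out (adjusted p = 0.0083). The peak 5928 bp upstream (chr9:116181021-116181556) had 146, 147 and 150 in control and 85, 73 and 66 in Taf4a sKO. This was the largest fall in Bmpr1a, Tgfbr1 and Tgfbr2, the 3 receptor genes among the members (-0.98 ± 0.18, adjusted p = 0.00012), with the 3 control libraries nearly equal. An intronic peak 22290 bp from the TSS (chr9:116152717-116153424) was higher, with 788, 707 and 971 in control and 1121, 1091 and 1037 in Taf4a sKO (0.41 ± 0.12, adjusted p = 0.0078), a call lost without control replicate 2 (adjusted p = 0.053). Farther in, 75947 bp from the TSS (chr9:116098864-116099963), values were 595, 608 and 664 in control and 534, 417 and 519 in Taf4a sKO (-0.35 ± 0.13, adjusted p = 0.030), a call lost in 2 of 16 alternatives. The other 3 peaks were not called, at 0.08 to 0.31. Over the 3 receptor genes, 3 of 20 peaks were higher and 6 were lower, against 28% and 13.9% of all peaks.

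**Figure D3:**
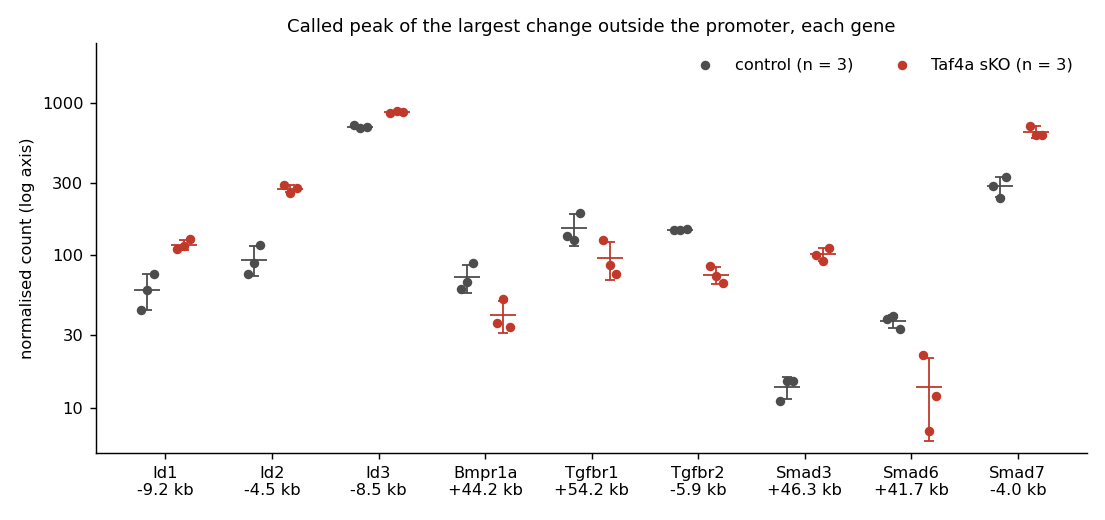
Normalised counts (y axis, log scale) in the 3 control and 3 Taf4a sKO libraries, with mean and SD, of the called peak outside the promoter with the largest change in each gene (x axis, with distance from the TSS, minus for upstream). Values rise from control to Taf4a sKO at Id1, Id2, Id3, Smad3 and Smad7 and fall at Bmpr1a, Tgfbr1, Tgfbr2 and Smad6; Id4 has no such peak.

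Smad3 (chr9:63646767-63757994, minus strand), a Smad that carries TGF-beta signals, had the largest share of higher peaks among the 10 genes. Of its 26 peaks, 19 were higher, none was lower and 25 had a positive log2 change, with a median of 0.72. The promoter peak was not among the 19: it (chr9:63756706-63758728) had 2940, 2594 and 3156 in control and 3583, 3201 and 3138 in Taf4a sKO (0.19 ± 0.10 SE, adjusted p = 0.14). Outside the promoter, 19 of 25 peaks were higher, beside 31.4% higher and 15.6% lower among all peaks that are no promoter peak. With each of the 4 other scalings, 17 of the 26 were higher (65.4%) and none was lower. Smad7 followed with 6 of 10 higher (60%) and none lower, and the same with TMM or median-of-ratios factors. In the pathway lists read below, Ltbp1 had 23 of 36 peaks higher, 0 lower and a median log2 change of 0.76. Among the 210 protein-coding genes with at least 20 peaks, the median gene had 38.5% of its peaks higher, Smad3 had 73.1%, and 1 gene had a larger share, while 7 genes had a larger median log2 change.

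The peak with the largest change of all 84 lay in an intron 46301 bp from the TSS (chr9:63711612-63711775). It had normalised counts of 11, 15 and 15 in control, close to the filter on low values, and 101, 92 and 112 in Taf4a sKO. This 7.04-fold difference (log2 2.82 ± 0.26, adjusted p = 3.2e-08) was that of a site barely open in control. The intronic peak 79966 bp from the TSS (chr9:63677552-63678504) rose from 258, 265 and 420 in control to 887, 906 and 946 in Taf4a sKO (1.57 ± 0.16, adjusted p = 3.7e-07). Another, 13997 bp from the TSS (chr9:63743870-63744125), rose from 144, 153 and 213 to 386, 360 and 410 (1.20 ± 0.16, adjusted p = 2.5e-06). At all 3 the genotypes were far apart, and these calls held in all 16 alternatives.

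More strongly open intronic sites of Smad3 moved as well. The peak 51387 bp from the TSS (chr9:63706224-63706991) had 1027, 992 and 1265 in control and 1848, 1684 and 1744 in Taf4a sKO (0.69 ± 0.11 SE), and the one at 41609 bp (chr9:63716028-63716742) had 761, 758 and 1191 and then 1665, 1543 and 1711 (0.89 ± 0.15). In both, control replicate 3 was the highest control library. In successive stretches of 27.8 kb from the TSS on, 7 of 7, 6 of 7, 3 of 4 and 3 of 7 peaks outside the promoter were higher, with median log2 changes of 0.56, 0.80, 1.25 and 0.24. The sole peak with a negative value lay 102937 bp from the TSS and was not called, with 320, 281 and 175 in control and 230, 162 and 195 in Taf4a sKO (-0.37 ± 0.20).

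The central 200 bases of the 4 Smad3 peaks with the largest changes are shown to let the sites be recognised (mm10, plus strand, GRCm38.p6 genome; capitals mark TGANTCA, the motif of AP-1, a Fos and Jun dimer, as well as CAGCTG and CCAAT or ATTGG; no GTCTG or CAGAC occurs in them). They lie at chr9:63711593-63711792, chr9:63677928-63678127, chr9:63674664-63674863 and chr9:63743897-63744096, and the shorter peaks are narrower than the window:
Smad3 intron, 46301 bp: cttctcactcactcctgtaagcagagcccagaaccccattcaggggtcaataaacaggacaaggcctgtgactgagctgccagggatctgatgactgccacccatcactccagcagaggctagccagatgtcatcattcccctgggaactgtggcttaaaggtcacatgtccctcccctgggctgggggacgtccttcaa
Smad3 intron, 79966 bp: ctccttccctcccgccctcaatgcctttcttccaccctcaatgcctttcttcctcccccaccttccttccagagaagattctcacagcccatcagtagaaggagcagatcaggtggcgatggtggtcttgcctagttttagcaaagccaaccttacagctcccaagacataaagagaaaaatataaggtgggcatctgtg
Smad3 intron, 83230 bp: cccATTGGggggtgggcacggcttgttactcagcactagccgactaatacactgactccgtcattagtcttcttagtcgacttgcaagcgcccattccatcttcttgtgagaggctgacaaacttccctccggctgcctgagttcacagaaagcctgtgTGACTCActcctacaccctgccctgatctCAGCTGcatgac
Smad3 intron, 13997 bp: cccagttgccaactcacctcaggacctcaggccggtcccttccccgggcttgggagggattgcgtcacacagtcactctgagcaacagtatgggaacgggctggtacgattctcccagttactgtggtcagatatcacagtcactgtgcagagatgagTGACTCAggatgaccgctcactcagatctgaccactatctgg
The peak 83230 bp from the TSS had 28, 48 and 92 in control and 128, 134 and 135 in Taf4a sKO (1.39 ± 0.33 SE), with the control libraries wide apart. TGANTCA occurs 1 time in each of the last 2 windows and not in the others.

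Smad6 (chr9:63953076-64022059, minus strand), the inhibitory Smad that acts mainly on BMP signals, had 13 peaks. Of these, 5 were higher (38.5%) and 1 lower (7.69%), beside 28% and 13.9% of all peaks. Its single lower peak (chr9:63980312-63980490) is shown as its central 200 bases (chr9:63980301-63980500, mm10, plus strand; capitals mark CCAAT), since it had the largest fall of all 84:
Smad6 intron, 41658 bp: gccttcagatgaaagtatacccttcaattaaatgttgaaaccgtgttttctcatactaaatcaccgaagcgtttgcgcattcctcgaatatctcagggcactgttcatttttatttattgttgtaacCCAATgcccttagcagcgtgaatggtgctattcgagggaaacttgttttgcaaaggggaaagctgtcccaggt
It had 38, 40 and 33 in control and 22, 7 and 12 in Taf4a sKO (-1.50 ± 0.37 SE, adjusted p = 0.0024), low values in both genotypes but without overlap.

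The Smad6 promoter peak (chr9:64021775-64023337) had 3664, 3375 and 4281 in control and 4312, 4012 and 4040 in Taf4a sKO (0.13 ± 0.10 SE, adjusted p = 0.32), with overlapping groups. Of the higher peaks, the one 20798 bp from the TSS (chr9:64001089-64001434) had 289, 277 and 432 in control and 548, 533 and 457 in Taf4a sKO (0.65 ± 0.16, adjusted p = 0.0023). Its neighbour at 24128 bp (chr9:63997372-63998491) had 889, 901 and 1200 and then 1633, 1473 and 1483 (0.63 ± 0.12, adjusted p = 0.00017). At both, each Taf4a sKO library was above each control library. The peak at 53568 bp (chr9:63967848-63969135) had 784, 767 and 819 in control and 1275, 1089 and 1184 in Taf4a sKO (0.58 ± 0.11, adjusted p = 0.00016). The remaining higher peaks, at 50966 and 63543 bp, changed by 0.45 and 0.40, and 6 others were not called, at -0.35 to 0.24. With TMM or median-of-ratios factors 5 Smad6 peaks were higher and 4 lower, and with equal totals or quantile normalization 3 were higher and 4 lower. Of all peaks, 23.4% to 25.4% were higher and 22.3% to 25.8% lower under these scalings.

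Smad7 (chr18:75367529-75395935, plus strand) inhibits both TGF-beta and BMP receptors and is itself induced by the pathway. Of its 10 peaks, 6 were higher (60%) and none was lower, beside 28% and 13.9% of all peaks. The promoter peak (chr18:75366425-75367882) had 3765, 3258 and 4124 in control and 4324, 3678 and 3805 in Taf4a sKO (0.09 ± 0.11 SE, adjusted p = 0.55). The groups overlapped at the promoter but not 4046 bp upstream (chr18:75363222-75363745), where control had 288, 240 and 326 and Taf4a sKO had 713, 623 and 614. That was a 2.29-fold difference (log2 1.20 ± 0.14, adjusted p = 4.6e-07). Inside the gene, the peak at 4393 bp (chr18:75371819-75372026) had 133, 118 and 161 in control and 215, 211 and 215 in Taf4a sKO (0.65 ± 0.16, adjusted p = 0.0023). The peak at 24432 bp (chr18:75391734-75392188) had 133, 150 and 187 and then 308, 271 and 221 (0.76 ± 0.17, adjusted p = 0.00075). In each of these 2 the lowest Taf4a sKO library was above the highest control library. The other higher peaks, at 8123, 11215 and 18792 bp, changed by 0.38, 0.67 and 0.50. The 3 others outside the promoter, at 1702, 20063 and 27123 bp, were not called, at -0.15 to 0.02. With equal totals or quantile normalization 2 Smad7 peaks were called lower, as were 25.1% to 25.8% of all peaks.

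**Figure D4:**
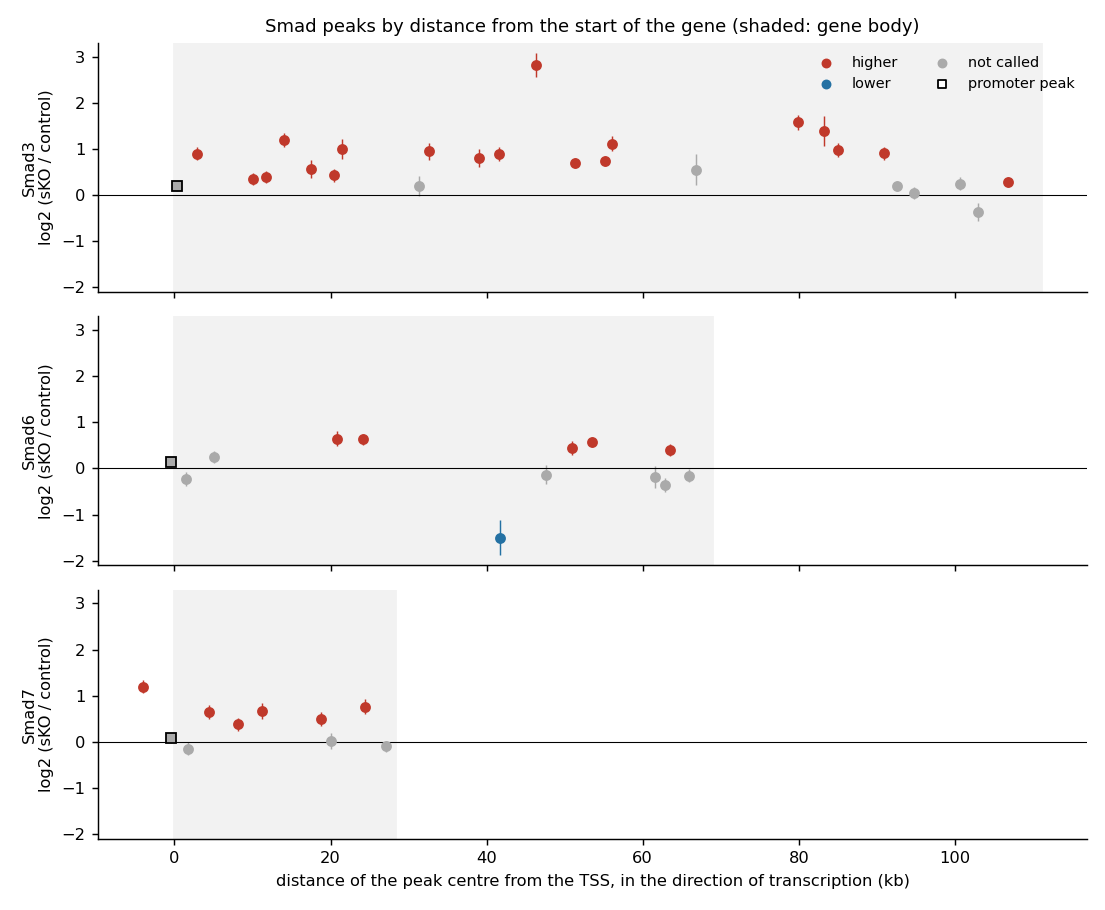
Log2 change between Taf4a sKO and control (y axis, with SE) of each peak of Smad3, Smad6 and Smad7 against its distance from the TSS in kb (x axis; grey area, gene body; squares, promoter peaks). Higher peaks run along most of the Smad3 gene and are sparser near its end, Smad6 has 5 higher and 1 lower peak, and 6 of 10 Smad7 peaks are higher.

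A factor per library shifts all its peaks together. The mean log2 value of the other peaks of a gene was therefore also set against its promoter peak within each library. This difference does not depend on a factor per library. For Id3 it was -1.62, -1.51 and -1.67 in control and -0.96, -0.97 and -0.91 in Taf4a sKO, a rise of 0.65 ± 0.09 SE (adjusted p = 0.0022 over 7924 genes). For Smad3 it was -3.77, -3.52 and -3.47 in control and -3.11, -3.06 and -2.92 in Taf4a sKO (rise 0.56 ± 0.12, adjusted p = 0.0089). Among all genes, 18.9% moved towards their other peaks in this way and 20.8% towards their promoter.

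Rises were also found for Id2 (0.46 ± 0.09 SE, adjusted p = 0.0059) and Id1 (0.42 ± 0.09, adjusted p = 0.011). In both genes the 3 Taf4a sKO libraries lay close together and above control. Each other peak weighs the same in the mean, however small it is. At Id2, 1 of the 3 other peaks was called (1.56), beside 0.10 and -0.09. At Id1, 1 of the 5 other peaks was called (1.00), and the promoter change of -0.24 also entered the difference. Smad7 rose by 0.35 ± 0.10 (adjusted p = 0.026), a call lost when any 1 library other than control replicate 3 was left out, with adjusted p of 0.052 to 0.080. Tgfbr1 moved the other way, from -5.11, -5.05 and -4.85 in control to -5.64, -5.51 and -5.73 in Taf4a sKO (change -0.62 ± 0.11, adjusted p = 0.0052). Values for Tgfbr2 (-0.23 ± 0.09, adjusted p = 0.091), Smad6 (-0.10 ± 0.09) and Bmpr1a (-0.01 ± 0.10) were not called, although every Taf4a sKO library of Tgfbr2 and Smad6 was below every control library. Thus 5 of 9 genes with other peaks were called towards them and 1 towards the promoter. Id4 has no other peak.

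**Figure D5:**
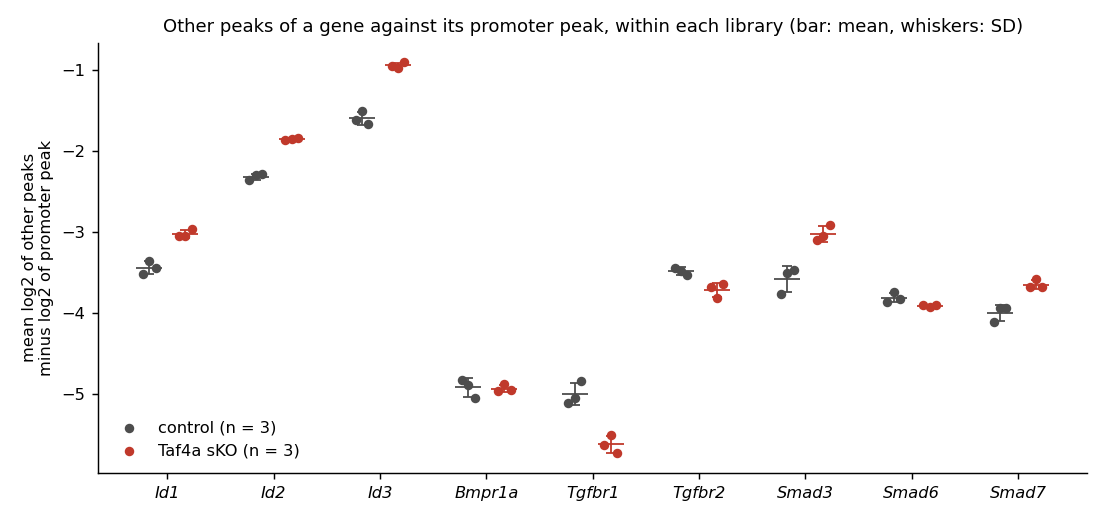
Mean log2 normalised count of the other peaks of a gene minus that of its promoter peak (y axis) in the 3 control and 3 Taf4a sKO libraries, with mean and SD (x axis, the 9 genes with both). The libraries of the genotypes separate upward at Id1, Id2, Id3, Smad3 and Smad7 and downward at Tgfbr1, Tgfbr2 and Smad6.

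Summed over all peaks of a gene, 1 of the 10 genes was called. The Smad3 sum was 12833, 12189 and 15587 in control and 20379, 18597 and 19487 in Taf4a sKO (0.53 ± 0.12 SE, adjusted p = 6.3e-05), with groups far apart. Of all 21398 gene sums, 22.2% were higher and 10.7% lower. The Id1 sum was 6983, 6494 and 8204 in control and 6868, 6241 and 6407 in Taf4a sKO (-0.15 ± 0.11, adjusted p = 0.35), and the groups overlapped. Smad6 had 7947, 7643 and 9716 and then 10439, 9883 and 9922 (0.26 ± 0.12, adjusted p = 0.064), with Taf4a sKO above control throughout. Without control replicate 3, 7 of the 10 sums were called higher: Bmpr1a, Id2, Id4, Smad3, Smad6, Smad7 and Tgfbr2, and so were 39.5% of all gene sums. With TMM factors, Smad6 joined Smad3 as higher, and Id1, Id3 and Tgfbr1 were lower, as were 25.1% of all sums.

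Motifs were counted in the central 200 bases of each peak, on both strands. TGANTCA, the AP-1 motif, was found in 12 of the 36 member peaks that were higher, 2 of the 8 lower and 2 of the 40 not called. Over all peaks it was in 25.7% of those higher, 14.4% of those lower and 14% of those not called, and in 17.3% of all. Smad3 held 9 of the 12, all among its 19 higher peaks, and none of its 7 other peaks had a match. GTCTG, the core of the Smad-binding element, was in 2 of the 19 higher Smad3 peaks and in 4 of its 7 others. Over the members it was in 10 of 36 higher, 4 of 8 lower and 16 of 40 other member peaks, beside 41.5% of all peaks, and its palindrome GTCTAGAC was in 1, the Smad7 promoter, beside 0.211% of all peaks.

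GGCGCC was in 4 of the 10 promoter peaks, those of Bmpr1a, Id3, Smad3 and Tgfbr1, and in 18.5% of all promoter peaks. CAGCTG was in 17 of 84 member peaks, none of them a promoter, and in 21.6% of all peaks and 13.3% of all promoter peaks. Median GC content was 64.8% in the member promoters and 53.9% in the other member peaks, against 50.5% in all peaks. Counts of matches are descriptions with no test.

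Around the 10 genes, within 100 kb of a TSS and outside the gene, lay 73 further peaks that carry no gene in the table. They are described by position and not assigned to a gene. Of them, 37 were higher and 4 lower, with a median log2 change of 0.43, beside 32.9% higher and 16% lower among all peaks without a gene. Near Id3, 7 of 8 were higher, and near Smad7 10 of 16, while near Smad3 it was 1 of 6.

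The 6 neighbouring peaks of smallest adjusted p were all higher. One lay 61551 bp upstream of Bmpr1a (chr14:34564710-34565075), with 83, 108 and 126 in control and 391, 389 and 405 in Taf4a sKO (1.91 ± 0.16 SE, adjusted p = 7.7e-09). Near Smad7, the peak 88063 bp downstream of the TSS (chr18:75455149-75456036) had 139, 123 and 177 in control and 454, 511 and 474 in Taf4a sKO (1.72 ± 0.15, adjusted p = 1.4e-08). At both the genotypes were far apart. Other Smad7 neighbours lay 88478 bp upstream (1.05 ± 0.13) and 37944 bp downstream (0.83 ± 0.13). The peak 17816 bp upstream of Id3 (chr4:136125496-136125867) had 99, 66 and 92 in control and 228, 212 and 223 in Taf4a sKO (1.38 ± 0.18, adjusted p = 1.8e-06). The peak 70021 bp downstream of the Id1 TSS (chr2:152805964-152806581) had 104, 128 and 196 and then 396, 432 and 412 (1.58 ± 0.18, adjusted p = 2.2e-06). In these, too, each Taf4a sKO library was above each control library.

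The rest of the pathway was read with 8 lists of 70 genes, of which 68 had a peak. Over their 414 peaks, 160 were higher (38.6%) and 35 lower (8.45%), beside 28% and 13.9% of all peaks, with a median log2 change of 0.23. Extracellular antagonists and latency proteins had the most higher peaks, 58 of 117, with 5 lower and a median of 0.38, and 23 of the 58 belonged to Ltbp1. Target genes had 13 of 29 higher and none lower, and the bHLH partners and targets of Id proteins had 32 of 74 higher and 5 lower, with 27 of these 32 in Tcf4 alone. The 5 Smads that carry signals besides Smad3 had 1 of 14 higher and 2 lower. With equal totals, 142 were higher (34.3%) and 87 lower (21%), beside 23.4% and 25.8% of all peaks.

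Among BMP ligands, 8 of 31 peaks were higher (25.8%) and 7 lower (22.6%), beside 28% and 13.9% of all peaks. The Bmp2 peak 10255 bp upstream of the gene had 139, 125 and 115 in control and 18, 25 and 21 in Taf4a sKO (-2.52 ± 0.23 SE, adjusted p = 2.5e-08), the largest fall among the named pathway peaks. An intronic Bmp6 peak had 1002, 866 and 1199 and then 573, 558 and 604 (-0.81 ± 0.12, adjusted p = 1.6e-05), and a Gdf6 peak rose by 0.69 ± 0.11 (adjusted p = 4.1e-05). Bmp2 and Bmp6 ligands signal through receptors that include Bmpr1a. Ligands of the TGF-beta, activin and myostatin group had 9 of 27 higher (33.3%) and 3 lower (11.1%), beside the same shares of all peaks. A Tgfb2 intronic peak had 169, 199 and 256 in control and 565, 630 and 581 in Taf4a sKO (1.52 ± 0.15, adjusted p = 5.6e-08), and the Tgfb2 promoter also rose (0.46 ± 0.11, adjusted p = 0.0018). The promoter of Inhba, which encodes an activin subunit, rose by 0.81 ± 0.15 (adjusted p = 0.00017). The promoters of the BMP ligands Bmp7 (-0.54 ± 0.15, adjusted p = 0.0049) and Gdf5 (-0.55 ± 0.19, adjusted p = 0.026) were lower. Over the 62 pathway genes with a promoter peak, 8 promoters were higher and 4 lower, beside 12.8% higher and 6.35% lower among all promoter peaks. The pathway promoters named were chosen after their values were seen.

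Receptors and co-receptors had 23 of 78 peaks higher (29.5%) and 8 lower (10.3%), near the 28% and 13.9% of all peaks. Tgfbr3, the co-receptor betaglycan, had an intronic peak with 475, 507 and 553 in control and 1273, 1311 and 1250 in Taf4a sKO (1.32 ± 0.11 SE, adjusted p = 7e-09). Bmpr1b, a type I BMP receptor, had none higher and 5 of 9 lower, and its leading intronic peak had 143, 139 and 176 in control and 44, 41 and 37 in Taf4a sKO (-1.88 ± 0.20, adjusted p = 1.5e-07), while its promoter was lower by a log2 change of -0.37 ± 0.13 (adjusted p = 0.022). The groups were far apart at the intronic peak. An Acvr1 intronic peak, in the gene of another type I receptor, rose by 1.17 ± 0.185 (adjusted p = 2.5e-05).

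Intracellular antagonists had 16 of 44 peaks higher (36.4%) and 5 lower (11.4%), beside 28% and 13.9% of all peaks. Of the 5 lower peaks, 4 were in Smurf1, a ubiquitin ligase that acts on BMP Smads. Its intronic peak (chr5:144918800-144919682) had 482, 367 and 514 in control and 100, 133 and 107 in Taf4a sKO (-1.99 ± 0.16 SE, adjusted p = 5e-09). Peaks of Smurf2, a related ligase (0.98 ± 0.17, adjusted p = 6e-05), and of Pmepa1, a TGF-beta-induced inhibitor of Smad signalling (1.04 ± 0.14, adjusted p = 3.7e-06), rose. Outside the cell, Ltbp1, which stores latent TGF-beta in the matrix, had a peak with 329, 311 and 423 in control and 969, 741 and 797 in Taf4a sKO (1.24 ± 0.14, adjusted p = 3.8e-07). Its relative Ltbp3 rose at a peak by 0.83 ± 0.14 (adjusted p = 7.5e-05). Leading peaks of the BMP antagonists and modulators Chrdl2 (1.17 ± 0.12), Twsg1 (1.23 ± 0.17), Bmper (1.17 ± 0.18), Fst (0.77 ± 0.12) and Fstl1 (0.82 ± 0.12) rose as well. Fst encodes follistatin, which binds activins and myostatin, and Chrdl2 is counted above as a MuSC marker too.

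Of the target genes, Tgfbi, a matrix protein gene induced by TGF-beta, rose at a peak 8114 bp upstream (0.91 ± 0.14, adjusted p = 3.4e-05). Tcf4, an E protein that Id proteins bind, rose at an intronic peak from 43, 45 and 42 to 168, 169 and 175 (1.95 ± 0.19, adjusted p = 3.6e-08). Among myogenic factors held back by Id proteins, the promoter of Myod1 rose (0.29 ± 0.10, adjusted p = 0.028) and that of Myog, which drives differentiation, fell by 0.86 on the log2 scale (SE 0.16, adjusted p = 0.00013). The Myf5 promoter was not called (-0.22 ± 0.11).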

How the data were processed

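ATAC-seq was analysed in 3 control and 3 Taf4a sKO libraries. The authors trimmed reads with Trimmomatic 0.39, aligned them to mm10 with STAR 2.7.11b, removed duplicates with Picard 3.1.1, called peaks with MACS in each library without a control, unified the peaks and counted reads with featureCounts. The deposited values, treated here as a score, are these counts times a depth factor (1.00 to 1.39, estimated from the missing integers) and rounded. A shift for Tn5 is not described in the sources used here. Each peak with a gene carries the nearest gene.

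Peaks with a mean above 10 (75384) were fitted on log2(value + 1) with limma 3.58.1 in R 4.3.3, with a variance trend and robust moderation, and Benjamini-Hochberg adjustment. Gene sums and the difference between other peaks and the promoter were fitted likewise, the latter without the trend. Members and lists were chosen with earlier results of these data known. Given in full are each promoter peak and up to 3 other called peaks per gene by adjusted p, the 20 pathway genes whose best peak had the smallest adjusted p and a fold beyond 1.5 (some items are not reported here), the 6 neighbouring peaks of smallest adjusted p, and every member outside these by count and range or, where singled out, by value after it was seen. Exons came from GENCODE M21, and the RefSeq promoter table on GRCm38 matched 8 of the 10 genes.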

Additional observations from a re-analysis of the deposited data

How the results depend on the processing

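The labels do not say whether same-numbered libraries are pairs. Correlations of same-numbered deviations from the genotype means were 0.11, -0.12 and -0.03, which cannot exclude pairing with 3 libraries per genotype. With the replicate block, 38 member peaks were higher and 8 lower, and 21944 and 11004 of all peaks; distal minus promoter calls fell from 5 to 4, since Smad7 was at an adjusted p of 0.050.

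With TMM factors, median-of-ratios factors, equal totals and quantile normalization, lower peaks numbered 16803, 16943, 19464 and 18898 of all peaks, 15, 15, 18 and 18 of the members and 70, 71, 87 and 86 of the pathway. Neighbouring lower peaks were 7 with equal totals and 8 with quantile normalization, and gene sums were 2, 2, 2 and 3 higher and 3, 3, 3 and 3 lower. With a log2 ratio of means beyond 1 in place of the test, all peaks had 5294 higher and 4039 lower, members 8 and 1, pathway 34 and 9, and neighbours 11 and 1. Annotated peaks only gave 9 and 2 for members and 52 and 10 for the pathway, and a window of 50 kb gave 15 and 2 neighbours, in both cases over fewer peaks; the share of higher members also differed, 29.0% of annotated peaks against 50.9% of those inside the gene.

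Leaving out 1 library gave 16024 to 28502 higher and 8565 to 10038 lower of all peaks, 26 to 46 and 6 to 9 of members, 131 to 205 and 23 to 38 of the pathway, and 28 to 45 and 2 to 4 of neighbours. The pathway and neighbour minima for lower calls came without Taf4a sKO replicate 3. Higher gene sums were 1 to 7, with 7 without control replicate 3, and lower ones 0 to 0. Distal minus promoter calls were 4 to 5 higher and 1 to 1 lower. Of the 36 higher members, 26 to 36 were still higher and none turned lower. Over the single peaks, gene sums and distal minus promoter values fitted, 630 kept direction and call, 37 gained a call, 24 lost one and 28 changed sign, all 28 uncalled before and after. The cause was not tested. Tests of a count model on whole reads were not run, since the values are scaled and rounded.

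With TMM factors, median-of-ratios factors, equal totals and quantile normalization, the log2 change became -0.0484, -0.0496, -0.0851 and -0.0625 at the Id2 promoter, -0.0256, -0.0268, -0.0622 and -0.0187 at the Smad7 promoter and -0.0006, -0.0018, -0.0373 and -0.0203 for the Id2 sum. With equal totals it became -0.0312 at the Bmpr1a promoter, -0.0083 at the Id4 promoter and for its sum, -0.0148 at the Smad6 promoter and -0.0071 for the Tgfbr2 sum. With quantile normalization it became -0.0021 at the Bmpr1a promoter, -0.0118 for the Tgfbr2 sum and 0.0744 for Bmpr1a distal minus promoter. Leaving out 1 library gave -0.0980 to 0.0636 at the Tgfbr1 promoter and -0.1300 to 0.0387 for its sum, -0.0025 to 0.1548 at the Id2 promoter, -0.0053 to 0.1647 at the Smad7 promoter and -0.0767 to 0.0315 for Bmpr1a distal minus promoter. In each range 1 end came without control replicate 3. The sign also changed without Taf4a sKO replicate 2 at the Tgfbr1 promoter, where the change was 0.0000, and for Bmpr1a distal minus promoter without control replicate 2 and without Taf4a sKO replicate 1.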
